A study of Mus musculus with 2 samples.

Results

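Collagen genes were taken as all protein-coding genes whose symbol is Col, a number, a and a number, which gave 44 genes among the 21474 protein-coding genes and the 43346 Ensembl genes of the deposited tables. Their RNA was measured at embryonic day 12.5 in mouse hindbrain, from which the cerebellum, pons and medulla develop. The 2 libraries were made from pooled hindbrains of healthy B6NCrl embryos, males and females mixed, with 88 embryos in replicate 2 and 120 embryos in replicate 1. Each started from 10 ng of RNA longer than 200 nt with ERCC spike-in RNAs added. They are replicates of 1 group, so no contrast of conditions exists, and every p-value below compares 1 library with the other. Depth was 29766460 expected counts for replicate 2 and 31633169 for replicate 1.

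Collagens are extracellular matrix proteins whose chains wind into a triple helix, either as homotrimers of 1 chain or as heterotrimers of different chains. Fibrillar collagens build the fibres of connective tissue and cartilage, type IV collagens form the sheet of basement membranes, FACIT collagens sit on the surface of fibres, type VI forms beaded filaments, and transmembrane collagens stay anchored in the cell membrane. In the embryonic brain, basement membranes lie under the pia and around blood vessels, and fibrillar collagens are mostly known from the meninges and the surrounding mesenchyme. The deposited transcript tables separate 2 pairs of forms whose sequences are given first.

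Col2a1, the chain of type II collagen, has an alternative second exon of 204 bases at chr15:98000403-98000606 (GRCm38, minus strand). This coding exon encodes a cysteine-rich domain of the amino propeptide, and it is known to be kept in the IIA form of early and non-cartilage tissues and skipped in the IIB form of mature chondrocytes. The sequences below run 5' to 3' on the transcript strand of the GENCODE M21 models, with exon 2 in capitals and 12 bases of the exon on either side in lower case; transcript Col2a1-201 holds the exon and transcript Col2a1-202 joins its neighbours directly.

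Col2a1-201: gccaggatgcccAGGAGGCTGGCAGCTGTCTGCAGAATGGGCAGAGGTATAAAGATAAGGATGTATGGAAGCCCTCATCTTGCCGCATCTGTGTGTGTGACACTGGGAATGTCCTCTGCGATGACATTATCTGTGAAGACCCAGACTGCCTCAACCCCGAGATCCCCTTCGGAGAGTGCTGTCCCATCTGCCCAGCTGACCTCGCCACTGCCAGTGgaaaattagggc

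Col2a1-202: gccaggatgcccgaaaattagggc

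Col9a1, a chain of type IX collagen, has an upstream start used by the long transcript Col9a1-201, at position 24177610 of chromosome 1, and a downstream start used by the short transcript Col9a1-202, at position 24195187 on the plus strand. The starts lie 17.6 kb apart, and the coding sequence has 2763 bases in the long form and 2040 bases in the short form. The long form is known from cartilage, and the short form from the eye and other tissues outside cartilage. The windows of 250 bases before the RefSeq starts (GRCm38.p6, plus strand) are shown because the share of these forms differed between the libraries. Capitals mark CCAAT, searched with TATAAA on both strands.

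Col9a1 upstream start, chr1:24177360-24177609: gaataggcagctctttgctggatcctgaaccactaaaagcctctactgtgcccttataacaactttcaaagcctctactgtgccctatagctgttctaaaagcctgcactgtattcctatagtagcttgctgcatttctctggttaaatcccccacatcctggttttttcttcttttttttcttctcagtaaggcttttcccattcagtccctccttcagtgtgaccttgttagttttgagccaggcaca

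Col9a1 downstream start, chr1:24194953-24195202: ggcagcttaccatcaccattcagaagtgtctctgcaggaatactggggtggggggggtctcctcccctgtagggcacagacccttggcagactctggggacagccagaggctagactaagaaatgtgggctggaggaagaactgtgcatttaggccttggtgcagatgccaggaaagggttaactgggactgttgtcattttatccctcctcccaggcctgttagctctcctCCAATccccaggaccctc

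The downstream window held 1 CCAAT and the upstream window none, and neither held TATAAA. The CCAAT motif was present in 33.8% of all 32851 RefSeq windows and TATAAA in 12.4%, while among the 38 windows of the 35 collagen genes that have one they occurred in 13 and 5. The downstream GENCODE start, at position 24195187, lies inside the second window, near its end and within the marked CCAAT. That motif is therefore not upstream of the GENCODE start of Col9a1-202.

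Collagen RNA was plentiful and unevenly spread over the family. Levels are given as TPM (a gene's share of all transcripts, corrected for transcript length and scaled to a fixed total per library), and 1 TPM in each library was required for a gene to count as detected. By that measure 34 of 44 collagen genes (77.3%) were detected, against 63.0% of all protein-coding genes. Together the 44 genes had a sum of 3128 TPM in replicate 2 and 2611 TPM in replicate 1. They took 0.884% of the expected counts in replicate 2 (95% Wilson interval 0.880 to 0.887) and 0.746% in replicate 1 (0.743 to 0.749). Intervals here and below cover counting error only. The 4 highest genes, Col3a1, Col1a1, Col2a1 and Col1a2, held 62.1% of collagen TPM in replicate 2 and 59.5% in replicate 1. A mean of 10 TPM or more was reached by 23 genes and 100 TPM by 6. Because the tissue was measured in bulk, fewer cells of a type and less RNA per cell cannot be told apart.

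**Figure D1:**
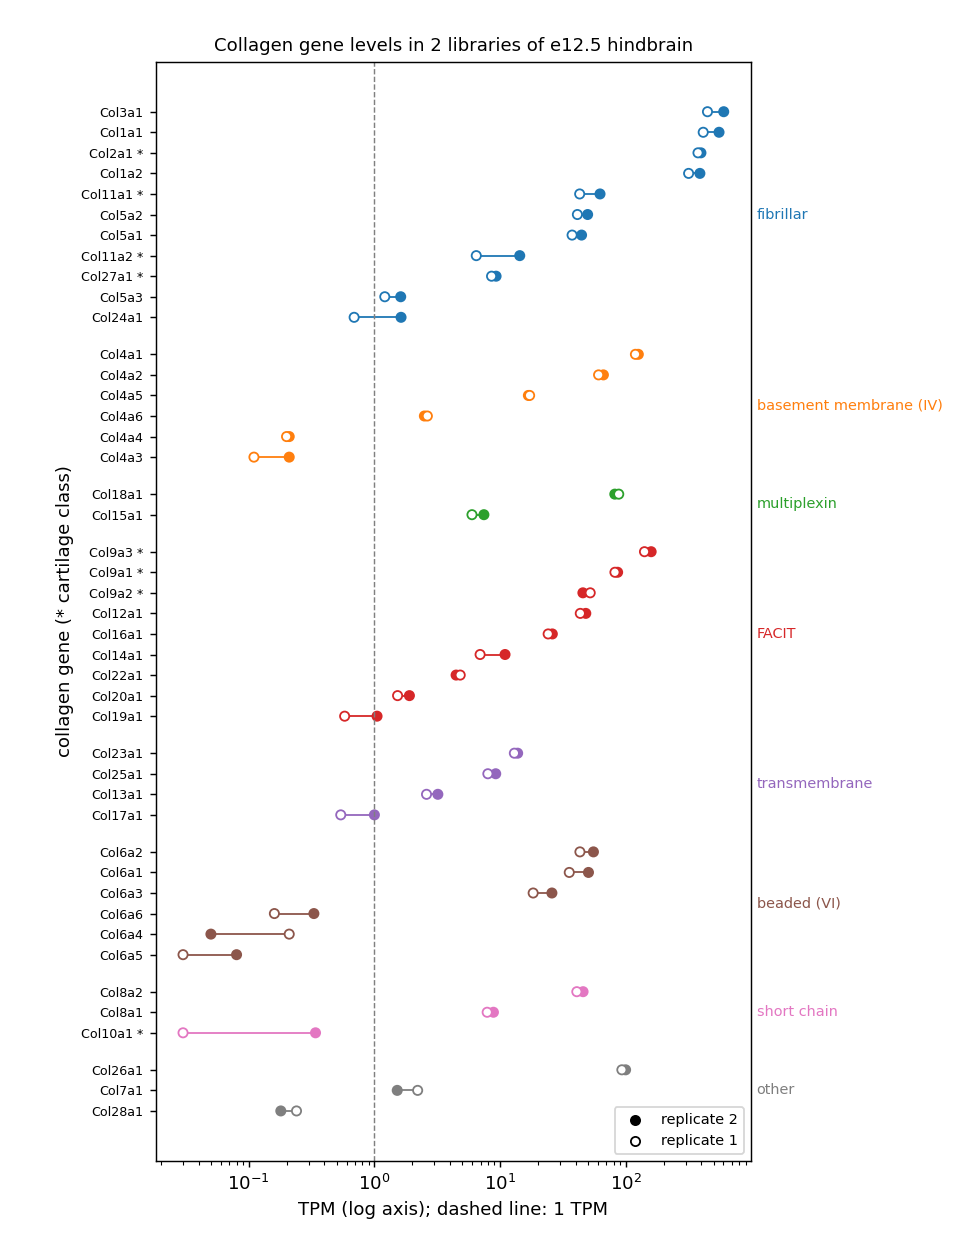
TPM of the 44 collagen genes on a log axis, by structural class, with a filled point for replicate 2 and an open point for replicate 1; asterisks mark the cartilage class and the dashed line 1 TPM. Levels run from 603 TPM for Col3a1 in replicate 2 to 0.03 TPM for Col6a5 and Col10a1 in replicate 1.

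Among fibrillar collagens, the chains of types I, II and III far exceeded those of types V and XI, which are known to regulate fibre diameter, and 10 of the 11 members were detected. Col3a1 (ENSMUSG00000026043.14, chr1:45311538-45349706), the only chain of type III collagen and typical of soft connective tissue, had 603 TPM in replicate 2 and 448 TPM in replicate 1, and it ranked 176th among protein-coding genes by mean level. Col1a1, the main chain of type I collagen, had 553 TPM in replicate 2 and 414 TPM in replicate 1. Col2a1 (ENSMUSG00000022483.12, chr15:97975602-98004695) had 397 TPM in replicate 2 and 376 TPM in replicate 1. These genes and Col1a2, the second chain of type I, with 390 TPM in replicate 2 and 317 TPM in replicate 1, kept the same order in both libraries. The ranges of Col3a1 and Col1a1 over the libraries overlapped, as did those of Col2a1 and Col1a2. Col3a1 led by gene TPM only. Col1a1 had more expected counts, 56119 against 47251 in replicate 2 and 45498 against 38658 in replicate 1. By leading transcript, Col1a1-201 had 550 TPM in replicate 2 and 411 TPM in replicate 1, against 481 and 363 TPM for Col3a1-201. The 737-base Col3a1-205 held 98.1 TPM of Col3a1 in replicate 2 and 77.25 TPM in replicate 1.

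The minor fibrillar chains lay well below these. Col11a1 had 62.5 TPM in replicate 2 and 43.0 TPM in replicate 1, and its type XI partner Col11a2 had 14.4 TPM in replicate 2 and 6.47 TPM in replicate 1. The type V chains Col5a2 and Col5a1 were close to each other, at 45.5 ± 6.02 and 41.0 ± 5.02 TPM (SD, n = 2), whereas Col5a3 had 1.62 TPM in replicate 2 and 1.21 TPM in replicate 1. Col27a1, known from developing cartilage, had 9.30 TPM in replicate 2 and 8.56 TPM in replicate 1. Col24a1, known in mouse from developing bone and cornea, was the fibrillar member not detected, with 1.63 TPM in replicate 2 and 0.69 TPM in replicate 1. The median of the 11 members was 45.5 ± 6.02 TPM, against 5.97 ± 0.141 TPM for all protein-coding genes (SD, n = 2).

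Type IV collagens, the network of basement membranes, were represented mostly by the α1 and α2 chains. Col4a1 had 126 TPM in replicate 2 and 120 TPM in replicate 1, and Col4a2 had 66.5 TPM in replicate 2 and 60.8 TPM in replicate 1. Col4a5 followed with 16.8 TPM in replicate 2 and 17.2 TPM in replicate 1, and Col4a6 with 2.50 TPM in replicate 2 and 2.64 TPM in replicate 1. Col4a3 and Col4a4, the chains that join Col4a5 in the network of the kidney glomerulus, were not detected: Col4a3 had 0.21 TPM in replicate 2 and 0.11 TPM in replicate 1, and Col4a4 had 0.21 TPM in replicate 2 and 0.20 TPM in replicate 1. The class median was 9.79 ± 0.187 TPM (SD, n = 2), with 4 of 6 members detected. Of the multiplexins, collagens of basement membranes, Col18a1, the source of endostatin, had 81.9 TPM in replicate 2 and 88.0 TPM in replicate 1. Col15a1 had 7.44 TPM in replicate 2 and 5.98 TPM in replicate 1.

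Type IV genes lie in head-to-head pairs, and the pairs stood at different levels. Col4a1 and Col4a2 overlap by 21 bases at their starts on chromosome 8 in GENCODE M21, and Col4a1 was 1.90-fold Col4a2 by TPM in replicate 2 and 1.96-fold in replicate 1. The X-linked pair Col4a5 and Col4a6, whose spans are 1309 bases apart, stood at 6.72-fold in replicate 2 and 6.52-fold in replicate 1. Col4a3 and Col4a4 are 72 bases apart on chromosome 1, and both rest on 28 counts or fewer in each library. The neighbours Col3a1 and Col5a2, tail to tail with 24.6 kb between them, were at 525 ± 109.7 and 45.5 ± 6.02 TPM. Col9a1 and Col19a1, with 9.21 kb between their ends, were at 84.2 ± 2.93 and 0.815 ± 0.332 TPM. In all, 10 adjacent pairs of collagen genes lay within 1000 kb.

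The cartilage class, which shares 4 of its 8 genes with the fibrillar class, had a median of 50.8 ± 4.56 TPM (SD, n = 2), and 7 of its members were detected. It holds the type IX chains, FACIT collagens that bind the surface of type II fibres. Of these, Col9a3 had 159 TPM in replicate 2 and 141 TPM in replicate 1, Col9a1 had 86.3 TPM in replicate 2 and 82.1 TPM in replicate 1, and Col9a2 had 45.6 TPM in replicate 2 and 52.2 TPM in replicate 1. The undetected member was Col10a1, a marker of hypertrophic chondrocytes, with 18 counts (0.34 TPM) in replicate 2 and 2 counts (0.03 TPM) in replicate 1. Its span overlaps that of Nt5dc1 on the opposite strand. How strand entered the counting is unknown, so reads from bases shared by exons of such genes may not be separable. The spans of 28 members, introns included, overlap another annotated gene on either strand. Whether their exons overlap was not tested, so this count does not show how many levels are affected.

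Outside cartilage, the FACIT members Col12a1 (48.1 TPM in replicate 2 and 43.5 TPM in replicate 1) and Col16a1 (26.1 TPM in replicate 2 and 24.2 TPM in replicate 1) led. Col14a1, found with type I fibres, had 11.0 TPM in replicate 2 and 6.94 TPM in replicate 1. Col22a1 was at 4.64 ± 0.247 and Col20a1 at 1.71 ± 0.262 TPM, and Col19a1 was not detected, with 1.05 TPM in replicate 2 and 0.58 TPM in replicate 1. Across the 9 FACIT genes 8 were detected, with a median of 25.1 ± 1.36 TPM.

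Type VI collagen was present as its classical chains. Col6a2 had 55.4 TPM in replicate 2 and 43.2 TPM in replicate 1, Col6a1 had 50.6 TPM in replicate 2 and 35.6 TPM in replicate 1, and Col6a3 had 25.9 TPM in replicate 2 and 18.4 TPM in replicate 1. The alternative chains Col6a4, Col6a5 and Col6a6, which lie next to each other on chromosome 9, all stayed at or below 0.33 TPM in both libraries.

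Transmembrane collagens had the lowest median of the fibrillar, basement membrane, cartilage and transmembrane classes, 5.76 ± 0.651 TPM (SD, n = 2). Col23a1 led with 13.8 TPM in replicate 2 and 13.0 TPM in replicate 1, followed by Col25a1, which is made by neurons, at 8.62 ± 0.877 TPM. Col13a1, known from the neuromuscular junction, had 3.20 TPM in replicate 2 and 2.60 TPM in replicate 1. Col17a1, a hemidesmosome component of skin, had 1.00 TPM in replicate 2 and 0.54 TPM in replicate 1 and was not detected.

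The remaining members were a mixed group. Col26a1 had 99.8 TPM in replicate 2 and 93.2 TPM in replicate 1, the seventh highest level of the family. The short-chain gene Col8a2, known from the corneal endothelium, had 45.8 TPM in replicate 2 and 40.8 TPM in replicate 1, 5.17-fold its partner Col8a1 in both libraries. Col7a1, the anchoring fibril collagen of skin, had 1.52 TPM in replicate 2 and 2.21 TPM in replicate 1. Col28a1 was not detected, with 0.18 TPM in replicate 2 and 0.24 TPM in replicate 1. All 44 members had some reads in both libraries, including the 10 that were not detected.

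Chains that assemble together were not at equal RNA levels. Type I collagen is built from a pair of α1 chains and a single α2 chain, and Col1a1 was 1.42-fold Col1a2 by TPM in replicate 2 and 1.31-fold in replicate 1. Within type VI, Col6a1 was 0.913-fold Col6a2 in replicate 2 and 0.823-fold in replicate 1, and it was 1.95-fold Col6a3 in replicate 2 and 1.94-fold in replicate 1. Against the coding transcript Col6a3-202 alone, without the other transcripts of the gene, Col6a1 was 4.40-fold in replicate 2 and 4.58-fold in replicate 1. Within type V, Col5a1 was 0.895-fold Col5a2 in replicate 2 and 0.907-fold in replicate 1. Col5a1 was also 27.5-fold the low Col5a3 in replicate 2 and 31.0-fold in replicate 1. Among detected chains of these types the widest shift between libraries in proportion was in type XI. There Col11a1 was 4.35-fold Col11a2 in replicate 2 and 6.65-fold in replicate 1. In type IX, Col9a3 was 3.49-fold Col9a2 in replicate 2 and 2.70-fold in replicate 1, and it was 1.85-fold Col9a1 in replicate 2 and 1.72-fold in replicate 1.

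Collagen RNA made up more of replicate 2 than of replicate 1. Ratios are log2 of replicate 2 over replicate 1 from expected counts scaled by TMM (trimmed mean of M values), which put the median of all 19209 genes tested at 0.00. The median over the 44 collagen genes was 0.24, with 38 above 0 and 6 below. A two-sided exact binomial test, Benjamini-Hochberg adjusted over all genes tested with a threshold of 0.05, called 26 collagen genes higher and 2 lower in replicate 2. The same test called 20.4% of all genes, 10.7% higher and 9.68% lower. It allows for counting error alone, so at these depths small differences pass it. With the spread between the libraries added (edgeR's exact test, common dispersion, a coefficient of variation of 9.02% estimated from the same libraries), 3 collagen genes were higher and 0 lower, against 0.942% and 0.625% of all genes (1.57% in either direction). Of these 3, Col10a1 has 18 counts in replicate 2 and 2 in replicate 1. It passed the filter of 10 counts over both libraries through replicate 2, so its place in these counts carries little weight. At an unadjusted p under 0.05 the edgeR exact test gave 12 higher and 1 lower. The share of all genes at that unadjusted threshold was not computed, so these counts have no background to be set against. Since each side is 1 library and the dispersion comes from the difference between them, the edgeR exact test is no independent support. No replicates remain to test these differences further, and the ERCC spike-ins scaled the libraries differently: on that scale the median of all genes was -0.37 and 17 collagen genes lay above 0. Each of the 4 scalings tried shifts all genes by the same amount. That 38 of the 44 were above the median of all genes, and that their median exceeded it by 0.24, could therefore not change between scalings and adds no support.

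**Figure D2:**
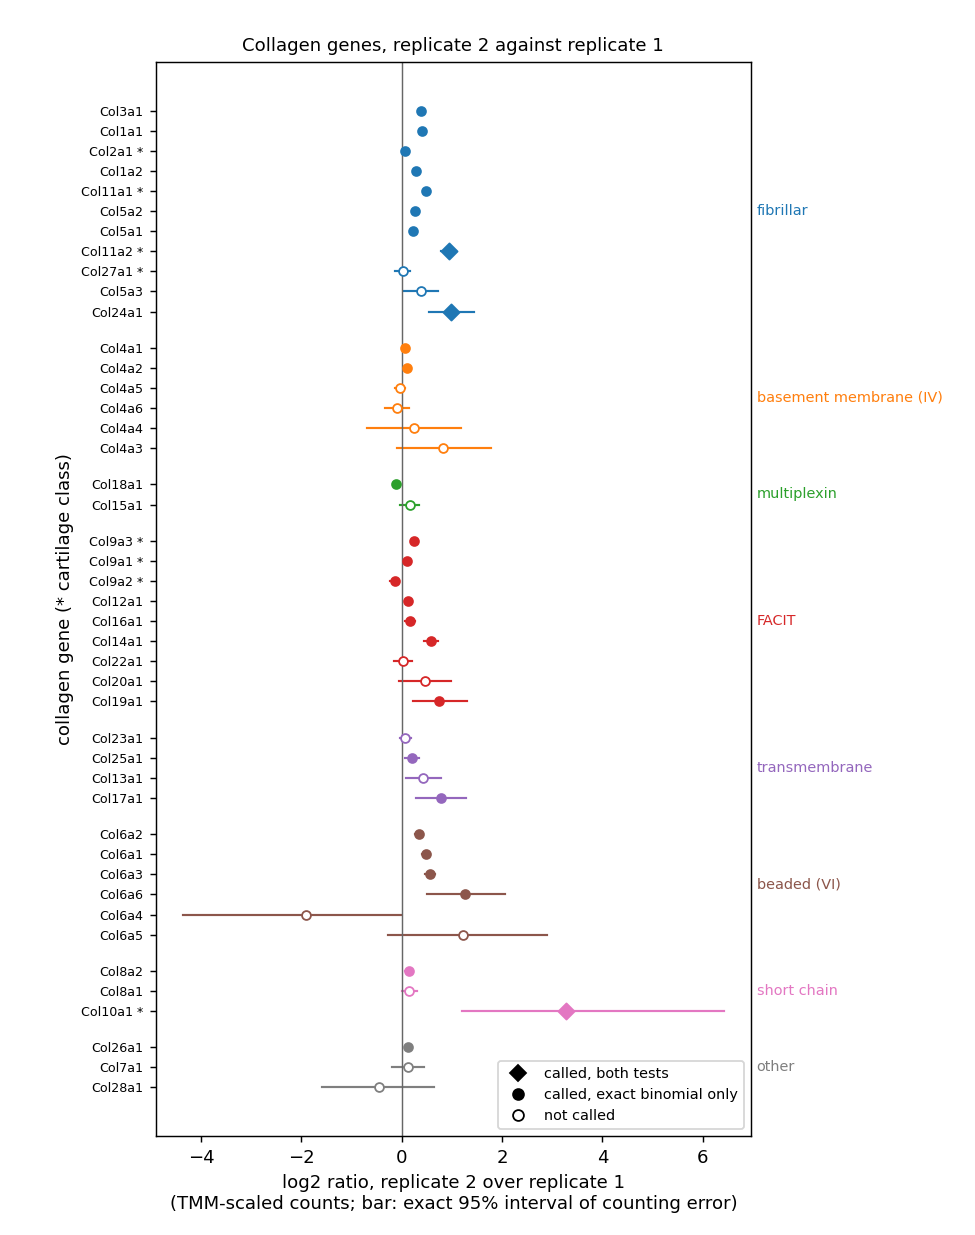
Log2 ratio of replicate 2 over replicate 1 for each collagen gene, with exact 95% intervals of counting error; diamonds passed both tests, filled circles the exact binomial test only and open circles neither. Col11a2, Col24a1 and Col10a1 are the 3 diamonds, and the 11 fibrillar genes all lie above 0, on the TMM scale.

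The fibrillar class had a median log2 ratio of 0.39. The exact binomial test called 9 of its 11 members higher, against 10.7% of all genes. Col11a2 (ENSMUSG00000024330.12, chr17:34039437-34066685) had 1123 counts in replicate 2 and 630 in replicate 1, a log2 ratio of 0.94 (95% interval 0.79 to 1.08) with an adjusted p of 0.000437 by the edgeR exact test. Col24a1 had 122 counts in replicate 2 and 66 in replicate 1, a log2 ratio of 0.99 (0.54 to 1.44, edgeR adjusted p = 0.0394). Col3a1 (0.39), Col1a1 (0.40), Col1a2 (0.29), Col11a1 (0.48), Col5a2 (0.26) and Col5a1 (0.23) were higher by the exact binomial test and did not pass the edgeR exact test, where their adjusted p ran upward from 0.314. Col2a1 had 31869 counts in replicate 2 and 32772 in replicate 1, a log2 ratio of 0.06 (0.04 to 0.08, exact binomial adjusted p = 2.11e-06, edgeR adjusted p = 1.00). Col27a1 (0.02) and Col5a3 (0.39) passed neither test. With spike-in scaling Col1a2 (-0.08), Col5a2 (-0.11), Col5a1 (-0.13), Col2a1 (-0.31) and Col27a1 (-0.35) lay below 0.

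The basement membrane class had small ratios in its abundant chains. Its median log2 ratio was 0.08, and Col4a1 (0.06) and Col4a2 (0.10) alone of the 6 were called higher by the exact binomial test; Col4a5 was at -0.04, Col4a6 at -0.10, Col4a4 at 0.24 and Col4a3 at 0.82. With spike-in scaling Col4a1 was at -0.30 and Col4a2 at -0.27. The multiplexin Col18a1 was lower in replicate 2 by that test, with a log2 ratio of -0.12 (95% interval -0.16 to -0.07, adjusted p = 7.42e-06). In the cartilage class (median 0.18), 6 genes were called higher and 1 lower, against 10.7% and 9.68% of all genes. Col9a3 had a log2 ratio of 0.25 and Col9a1 of 0.10, both higher by the exact binomial test but with an edgeR adjusted p of 1.00, and at -0.11 and -0.27 with spike-in scaling. Col9a2 was lower at -0.14 (-0.23 to -0.06, exact binomial adjusted p = 0.00555). Col10a1 had a log2 ratio of 3.27 with a wide interval of 1.21 to 6.42 (edgeR adjusted p = 0.0422). It rests on 18 counts in replicate 2 and 2 in replicate 1, under the floor of 3 counts, so it passed the filter of 10 counts over both libraries through replicate 2, and its call carries little weight.

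Type VI genes had the highest class median, 0.52, though it includes Col6a4, Col6a5 and Col6a6, which were not detected. Col6a4 was at -1.90 (3 counts in replicate 2 and 12 in replicate 1) and Col6a5 at 1.22 (12.5 counts in replicate 2 and 6 in replicate 1). Col6a3 (0.56), Col6a1 (0.48) and Col6a2 (0.34) were higher in replicate 2 by the exact binomial test, and so was Col6a6 (1.26, from 49.5 counts in replicate 2 and 22 in replicate 1). The transmembrane class had a median of 0.32 with Col17a1 (0.78) and Col25a1 (0.20) called higher by the same test, while Col13a1 was at 0.43 and Col23a1 at 0.07. Among other FACIT genes, Col14a1 (0.59), Col19a1 (0.75), Col16a1 (0.16) and Col12a1 (0.12) were called higher, and in the remaining classes Col8a2 (0.14) and Col26a1 (0.13). None of these genes passed the edgeR exact test, whose adjusted p ran from 0.108 for Col6a6 to 1.00, and with spike-in scaling the ratios of Col6a2, Col12a1, Col16a1, Col25a1, Col23a1, Col8a2 and Col26a1 were below 0.

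Col2a1 RNA was mostly of the form that holds exon 2. IsoPct is the deposited share of a gene's TPM in each transcript, and for Col2a1-201 it was 55.6% in replicate 2 and 62.4% in replicate 1 (59.0 ± 4.82%, SD, n = 2). Col2a1-202, which joins the neighbours of exon 2, had 37.1% in replicate 2 and 29.9% in replicate 1. Adding every transcript with the whole exon, including the retained-intron transcript Col2a1-209 at 4.47% in replicate 2 and 4.57% in replicate 1, brought the exon 2 share to 60.3% in replicate 2 and 67.1% in replicate 1. The exon 2 form had the larger share in both libraries. Counted as fragments within this pair, Col2a1-201 held 61.2% in replicate 2 and 68.7% in replicate 1, with a deposited posterior SD that comes to 1.78 percentage points in replicate 2 and 1.59 in replicate 1. No test of the difference between the libraries was made, since the SD covers the division of shared fragments and not the spread between pools. The other 7 transcripts of the gene are processed or retained-intron transcripts without a coding sequence.

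Col9a1 RNA came mainly from the downstream start. The short transcript Col9a1-202 had 72.2 TPM (83.7%) in replicate 2 and 79.1 TPM (96.3%) in replicate 1. The long transcript Col9a1-201 had 13.2 TPM (15.3%) in replicate 2 and 2.35 TPM (2.86%) in replicate 1. These rest on 863 expected counts in replicate 2 (posterior SD 45.4) and 167 in replicate 1 (posterior SD 20.0). The long form was thus 5.62-fold higher by TPM in replicate 2, while the short form was 0.913-fold. This gene was singled out after its values were seen, so the difference is a description without a test.

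**Figure D3:**
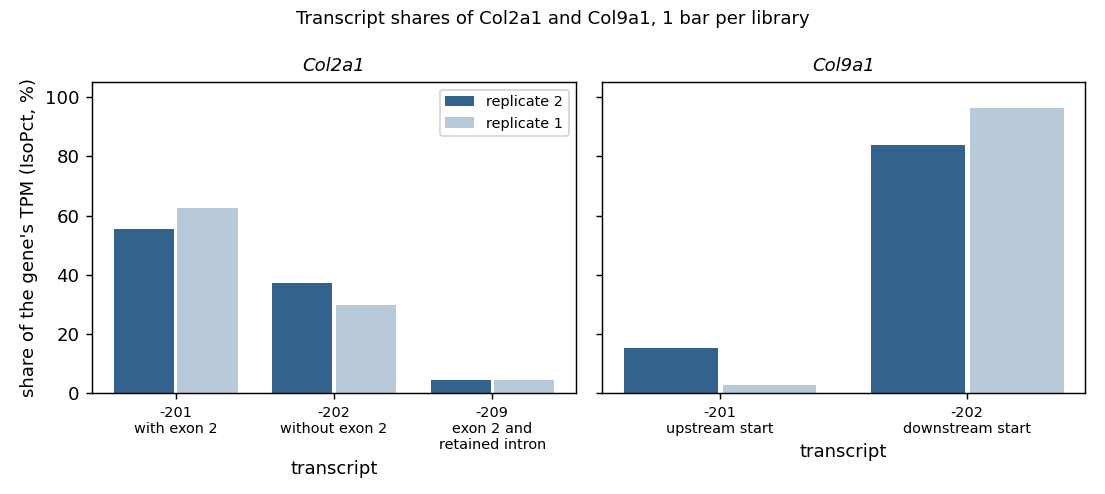
Share of the gene's TPM in the main transcripts of Col2a1 (left) and Col9a1 (right), 1 bar per library with replicate 2 left of replicate 1. Col2a1-201, with exon 2, holds 55.6% in replicate 2 and 62.4% in replicate 1, and the upstream-start form Col9a1-201 holds 15.3% in replicate 2 and 2.86% in replicate 1.

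Of the 33 detected collagen genes with several transcripts, 29 had the same leading transcript in both libraries. Col18a1 was made almost wholly as Col18a1-202, which starts furthest upstream, with 99.0% of the TPM in replicate 2 and 99.2% in replicate 1, and a coding sequence of 3945 bases against 5322 bases in Col18a1-201. Col11a2 was led by the coding transcript Col11a2-201 at 69.2% in replicate 2 and 82.2% in replicate 1. By posterior mean TPM its share was lower, 59.98% in replicate 2 and 69.17% in replicate 1. A retained-intron transcript, Col11a2-207, held 26.01% in replicate 2 and 14.3% in replicate 1. That rests on 48.1 expected counts in replicate 2 (posterior SD 11.3) and 12.95 in replicate 1 (posterior SD 7.66). Short transcripts of this kind raise a gene's TPM with few fragments. In Col6a3 the 646-base retained-intron transcript Col6a3-206 held 40.6% of the TPM in replicate 2 and 45.2% in replicate 1, from 101 counts in replicate 2 and 86.1 in replicate 1. In Col12a1 the 1784-base Col12a1-204 held 41.8% in replicate 2 and 42.0% in replicate 1.

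The RNAs of the enzymes and chaperones that build collagen chains were present throughout. All 19 genes of chain modification and folding were detected, led by Serpinh1, the collagen chaperone HSP47 (671 TPM in replicate 2 and 638 TPM in replicate 1), P4hb, a subunit of prolyl 4-hydroxylase (396 TPM in replicate 2, 391 TPM in replicate 1), and the prolyl isomerase gene Ppib (340 TPM in replicate 2, 359 TPM in replicate 1). The lowest was P3h2, a prolyl 3-hydroxylase, with 2.86 TPM in replicate 2 and 1.89 TPM in replicate 1. The exact binomial test called 8 of the 19 higher and 1, Ppib, lower, against 10.7% and 9.68% of all genes. Genes of high counts passed it at small ratios, such as P4hb (log2 ratio 0.04) and Serpinh1 (0.06). P3h2 was the one that passed the edgeR exact test (log2 ratio 0.94, adjusted p = 0.0385). The list median was 0.06, nearer to the 0.00 of all genes than to the 0.24 of the collagens.

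Of 13 genes for propeptide processing and cross-linking, 10 were detected, with Pcolce, an enhancer of propeptide cleavage (64.8 TPM in replicate 2 and 52.8 TPM in replicate 1), Bmp1, the C-propeptide protease (44.8 TPM in replicate 2, 50.9 TPM in replicate 1), and the cross-linking enzyme Lox (29.4 TPM in replicate 2, 22.8 TPM in replicate 1) at the top. Loxl4 was lowest with 0.41 TPM in replicate 2 and 0.16 TPM in replicate 1. The list median was 0.29, and the exact binomial test called 6 higher and 1, Bmp1, lower, against 10.7% and 9.68% of all genes. None of these 13 passed the edgeR exact test. Of 10 collagen-binding matrix proteins, all detected, 9 were called higher (median 0.24), where the exact binomial test called 10.7% of all genes higher. None of this list of 10 passed the edgeR exact test. Sparc (648 TPM in replicate 2 and 640 TPM in replicate 1), the small leucine-rich proteoglycan Lum (147 TPM in replicate 2, 117 TPM in replicate 1) and Fbln1 (103 TPM in replicate 2, 89.2 TPM in replicate 1) led that list, with Prelp lowest (8.49 TPM in replicate 2, 5.86 TPM in replicate 1).

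Collagen receptors were led by Itgb1, the shared integrin β1 subunit (164 TPM in replicate 2 and 149 TPM in replicate 1), Ddr1, a receptor tyrosine kinase (134 TPM in replicate 2, 147 TPM in replicate 1), and Adgrg1, the adhesion receptor for type III collagen in the developing cortex (117 TPM in replicate 2, 115 TPM in replicate 1). The platelet receptor Gp6 was lowest with 0.43 TPM in replicate 2 and 0.15 TPM in replicate 1. The exact binomial test called 4 of the 10 higher and 1, Ddr1, lower, against 10.7% and 9.68% of all genes. None of these 10 passed the edgeR exact test. Among 11 breakdown genes, Mmp14 (91.2 TPM in replicate 2 and 87.4 TPM in replicate 1), Mmp2 (72.3 TPM in replicate 2, 73.6 TPM in replicate 1) and the inhibitor Timp2 (55.1 TPM in replicate 2, 54.0 TPM in replicate 1) led, and Mmp1a was listed at 0 in both. Of the 9 that could be tested, Mmp8 alone was called higher by the exact binomial test, but it has 9 counts in replicate 2 and 1 in replicate 1, passed the count filter through replicate 2, and had an edgeR adjusted p of 0.528. The 13 basement membrane partners were all detected, led by Sparc, Agrn (130 TPM in replicate 2 and 145 TPM in replicate 1) and Pxdn, which cross-links type IV collagen (74.5 TPM in replicate 2, 68.9 TPM in replicate 1). The exact binomial test called 7 of the 13 higher and 3 lower, against 10.7% and 9.68% of all genes. The lowest gene, Lama5, was also lower by the edgeR exact test (4.69 TPM in replicate 2 and 7.12 TPM in replicate 1, adjusted p = 0.00732). Sparc was entered in both lists that hold it.

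Markers listed for tissues beside the hindbrain also differed between the libraries, and which cells their RNA came from was not tested. Of all genes, the exact binomial test called 10.7% higher and 9.68% lower, and the edgeR exact test 0.942% and 0.625%. The 8 skeletal muscle markers were all higher in replicate 2 by both tests, with a summed level of 253 TPM in replicate 2 and 54.0 TPM in replicate 1. Among 10 cartilage markers, 6 were higher by the exact binomial test and 5 (Acan, Comp, Hapln1, Matn1, Matn3) also by the edgeR exact test, and the sum was 337 TPM in replicate 2 and 281 TPM in replicate 1; Matn1, a cartilage matrix gene, had 15.6 TPM in replicate 2 and 3.74 TPM in replicate 1. Sox9, Sox5 and Sox6, which neural progenitors and glia express as well, passed neither test. Of 11 meninges and mesenchyme markers, 6 were higher and 2 lower by the exact binomial test, with 708 TPM in replicate 2 and 646 TPM in replicate 1. Their list shares Lum and Dcn with the collagen-binding proteins.

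Bone markers had a sum of 49.9 TPM in replicate 2 and 46.1 TPM in replicate 1, with 1 of 5 tested genes higher and Bglap, the osteocalcin gene, at 0 in both. Notochord markers, another site of type II collagen, had a sum of 8.66 TPM in replicate 2 and 9.37 TPM in replicate 1, with Noto at 0 in both. Most of the sum was Shh (3.96 TPM in replicate 2, 4.86 TPM in replicate 1) and Foxa2 (3.45 TPM in replicate 2, 4.21 TPM in replicate 1), which passed neither test. Whether Shh and Foxa2 RNA came from notochord or from the hindbrain itself was not tested. The 1 of 3 tested genes called higher was T, with 1.25 TPM (32 counts) in replicate 2 and 0.30 TPM (11 counts) in replicate 1. Otic epithelium markers were lower in 5 of 6 cases by the exact binomial test, with 147 TPM in replicate 2 and 304 TPM in replicate 1. Most of that sum was Oc90 (107 TPM in replicate 2, 247 TPM in replicate 1) and Gata3 (39.1 TPM in replicate 2, 51.65 TPM in replicate 1), and 2 of the 6 were detected. Surface epithelium markers were lower in 4 of 7 and higher in 1, with 79.6 TPM in replicate 2 and 115 TPM in replicate 1. Pericyte and smooth muscle markers were higher in 5 of 9 (168 TPM in replicate 2 and 117 TPM in replicate 1), endothelial markers higher in 1 and lower in 1 of 7 (138 TPM in replicate 2, 131 TPM in replicate 1), choroid plexus markers higher in 2 of 5 (436 TPM in replicate 2, 369 TPM in replicate 1), and markers of neural crest glia and ganglia higher in 2 and lower in 2 of 6 (65.9 TPM in replicate 2, 58.8 TPM in replicate 1). Neuron markers were higher in 3 and lower in 2 of 6 (2441 TPM in replicate 2 and 2366 TPM in replicate 1), and radial glia markers lower in 4 of 6 (2442 TPM in replicate 2, 2675 TPM in replicate 1), with all members of both lists detected. Of all genes, the exact binomial test called 10.7% higher and 9.68% lower. By the edgeR exact test, 4 otic epithelium, 1 surface epithelium and 1 crest glia and ganglion marker were lower. The same test called 1 pericyte and smooth muscle marker higher, Acta2, which held 83.3 TPM of that list's sum in replicate 2 and 40.5 TPM in replicate 1. It called none of the meninges and mesenchyme, bone, notochord, endothelial, choroid plexus, neuron and radial glia markers. The part of the marker differences in the collagen ratios and in the transcript shares of Col2a1 and Col9a1 was not tested.

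**Figure D4:**
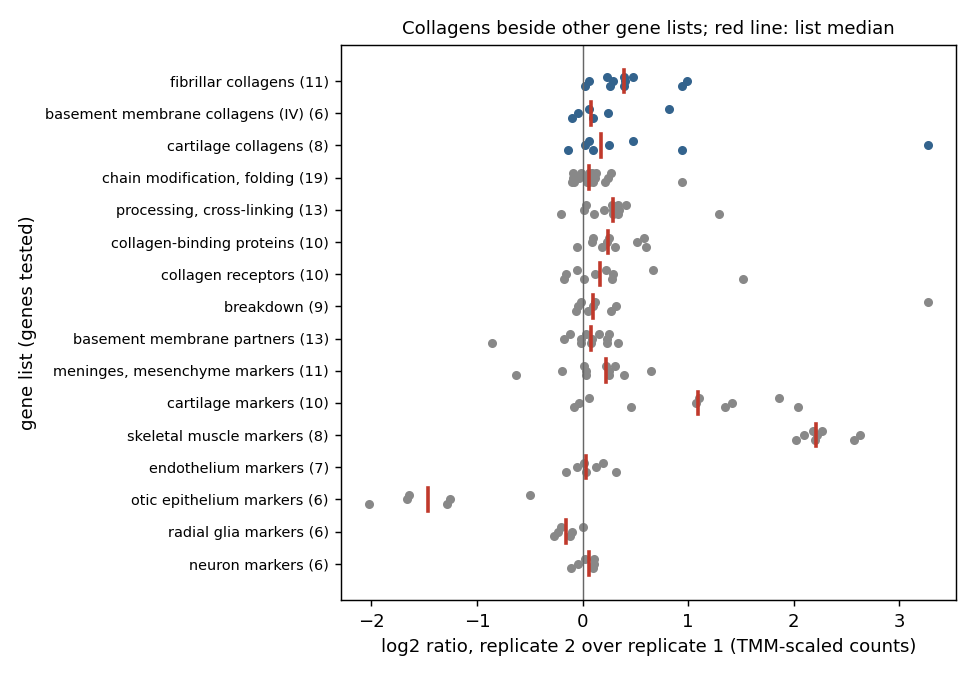
Log2 ratio of replicate 2 over replicate 1 for each gene tested, by list, with collagen classes in blue, other lists in grey and the list median as a red line. Medians are 0.39 for fibrillar, 0.08 for type IV and 0.18 for cartilage collagens, against 2.21 for skeletal muscle and 1.09 for cartilage markers, on the TMM scale.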

How the data were processed

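Total RNA-seq of 2 libraries was used as deposited. Per the file headers, the authors' gene and transcript tables hold expected counts (estimated fragments per gene or transcript, not whole where fragments are shared), TPM and posterior mean TPM, the share of each gene's TPM in each transcript as a percent (IsoPct), and the posterior standard deviation of each count. The deposited notes give assembly mm10 and annotation GENCODE M4; aligner, quantifier and strandedness were not given in the sources used here. Names and coordinates are those of GENCODE M21 (GRCm38), matched on the identifier without version for 42462 of 43346 Ensembl genes and 198 of 201 collagen transcripts; 97 entries are spike-ins and 26248 numbered entries name no gene. The numbered entries held 0.000114% of counts in replicate 2 and 0.000107% in replicate 1 and stayed out of all steps. ERCC spike-ins held 4.36% of counts in replicate 2 and 3.41% in replicate 1.

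Expected counts were rounded, genes with 10 or more counts over both libraries were kept, and TMM scaling was done with edgeR 4.0.16 under R 4.3.3 (factors 1.0003 for replicate 2 and 0.9997 for replicate 1). The exact binomial test and its intervals came from scipy 1.17.1. edgeR's quasi-likelihood test could not be fitted between the libraries, since with each as its own group no residual degrees of freedom are left. The alternative, edgeR's exact test, took its common dispersion from the same 2 libraries. DESeq2 1.42.0 gave size factors only. Both tests were tested on simulated data drawn with counting error alone, which cannot show how they behave under the spread between these libraries. Named were all collagens, and from each pathway list the 3 genes of highest mean TPM, the lowest, and those passing the edgeR exact test; marker genes named singly were chosen after their values were seen, as were pathway genes called lower and Mmp8. Members and lists were chosen with earlier results of these data known. Nothing says how separately the pools were collected beyond the labels' term biological replicate. At these depths 3 counts, the limit that a count of 0 allows, are 0.101 CPM in replicate 2 and 0.0948 CPM in replicate 1. TATAAA and CCAAT were searched in RefSeq windows of 250 bases.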

Additional observations from a re-analysis of the deposited data

How the results depend on the processing

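With common dispersion added, 3 collagen genes were higher and 0 lower in replicate 2, against 26 and 2. Col10a1, among both the 3 and the 26, passed the count filter through replicate 2. Scaling by the ERCC spike-ins gave 10 higher and 23 lower, where 1.70% of all genes were higher and 66.0% lower, and 2.51% of calls were higher against 52.6% under TMM. DESeq2 size factors, library totals and the looser count filter left 26 and 2. Under ERCC scaling 21 of the 44 log2 ratios turned negative: Col27a1 (-0.35), Col22a1 (-0.34), Col7a1 (-0.24), Col8a1 (-0.22), Col15a1 (-0.21), Col4a4 (-0.13), Col12a1 (-0.24), Col16a1 (-0.21), Col1a2 (-0.08), Col23a1 (-0.30), Col25a1 (-0.16), Col26a1 (-0.24), Col2a1 (-0.31), Col4a1 (-0.30), Col4a2 (-0.27), Col5a1 (-0.13), Col5a2 (-0.11), Col6a2 (-0.03), Col8a2 (-0.23), Col9a1 (-0.27) and Col9a3 (-0.11). The spike-in shift applies to all genes alike. Of 30 ratios of genes named for their level or call, 25 lost their call with dispersion added, and 4 moved as log2 TPM differences with each of the pseudocounts 1 and 0.1, not the same 4.

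Rescaled without spike-ins, class medians were 10.8 TPM for type IV and 56.3 TPM for cartilage collagens. Class sums were 1910.0 TPM for fibrillar, 206 TPM for type IV, 742 TPM for cartilage and 25.7 TPM for transmembrane collagens. Col2a1-201 held 64.3% of the gene's expected counts, against 59.0% of its TPM. Each library alone gave 34 to 37 collagens detected, class medians of 41.3 to 49.8 (fibrillar), 9.65 to 9.92 (type IV), 47.6 to 54.1 (cartilage) and 5.30 to 6.22 TPM (transmembrane), and 55.6 to 62.4% for Col2a1-201. Detected members numbered 37 at 0.5 TPM, 28 at 5 TPM and 35 by posterior mean TPM. No paired analysis was possible because the 2 libraries form 1 group. Counts were near the limit of depth for Col10a1 (2 in replicate 1) and Col6a4 (3 in replicate 2).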

Other observations

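The log2 ratios of Col7a1 and Col22a1 had opposite signs in counts and in TPM. For Col22a1 they were 0.02 and -0.11. Col7a1 had 170 expected counts in replicate 2 and 167 in replicate 1, a log2 ratio of 0.13 (95% interval -0.19 to 0.44), but 1.52 TPM in replicate 2 and 2.21 TPM in replicate 1, a log2 TPM ratio of -0.54. Its leading transcript also differed, Col7a1-201 in replicate 2 and Col7a1-202 in replicate 1.

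Col26a1 was divided between 2 coding transcripts of nearly equal length. Col26a1-202 held 69.7% of the TPM in replicate 2 and 58.6% in replicate 1, and Col26a1-201 held 18.4% in replicate 2 and 26.04% in replicate 1. The share of Col26a1-201 rests on 843 expected counts in replicate 2 (posterior SD 160) and 1209 in replicate 1 (posterior SD 164). Col4a5 gave 66.2% in replicate 2 and 61.7% in replicate 1 to the full-length Col4a5-202, and 33.8% in replicate 2 and 34.7% in replicate 1 to Col4a5-204, a 3511-base transcript that starts inside the gene. Both genes were singled out after their values were seen.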
